A study of Caenorhabditis elegans with 12 samples.

Results

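Neuronally RNAi-sensitive worms of the strain TU3311 that were fed bacteria for daf-7 RNAi were compared with TU3311 worms fed the empty vector L4440. These are 6 of the 12 RNA-seq libraries of the series, 3 for each feeding. All came from whole hermaphrodites of Caenorhabditis elegans aged 5 days. The labels describe the strain as carrying a sid-1 transgene and call its RNAi neuronal. They name neither the promoter of the transgene nor the state of the chromosomal sid-1 gene, so how well other tissues were spared was not tested. The other 6 libraries were of daf-16(mu86) worms fed vector or bcat-1 RNAi. They entered only the low-count filter, the scaling, the shared estimate of spread and 1 comparison of responses.

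The libraries carry numbers, and vector and RNAi libraries alternate. Neighbours were taken as pairs, 7 with 8, 9 with 10 and 11 with 12, where the odd number is the vector. Each gene is described by its difference within these 3 pairs, because libraries 7 and 8 stand apart together from the other 4. Total counts per library ran from 32450972 to 41686335, and 15434 to 16809 genes had at least 10 counts. Levels are given in CPM, a gene's counts scaled to library size after TMM scaling, a correction for differences in RNA composition. Nothing in the labels says that the libraries came from separate cultures, so a p-value here measures only how these libraries vary, and that variation may be technical. In whole worms, fewer cells of a type and less RNA per cell cannot be told apart.

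The gene daf-7 encodes a TGF-beta-type ligand that sensory neurons, chiefly the ASI pair in the head, release when food is plentiful and crowding pheromone is scarce. The ligand binds the receptor kinases DAF-1 and DAF-4, which act through the SMAD proteins DAF-8 and DAF-14 and so restrain DAF-3 and DAF-5. Loss of the signal drives larvae into the dauer stage and alters fat storage, feeding, egg laying and lifespan in adults.

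The gene named on the label was higher, not lower, in every library labelled daf-7 RNAi. The gene (WBGene00000903) lies on chromosome III, 811844 to 813773, plus strand, in the build WBcel235, and no other annotated gene overlaps it. In libraries 7 and 8 it stood at 12.1 CPM with vector and 115.5 CPM with daf-7 RNAi. In libraries 9 and 10 it stood at 8.38 and 31.4 CPM, and in libraries 11 and 12 at 6.21 and 136.5 CPM. All 3 RNAi libraries lay above all 3 vector libraries, and the groups did not overlap. How many of all genes separate in this way was not counted.

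The within-pair differences of daf-7 were 3.25, 1.90 and 4.45 on the log2 scale, with an SD of 1.275. With all 12 libraries in 1 edgeR fit and the pair as a block, the log2 change was 3.21 ± 0.40 (SE of that fit, n = 3 pairs), or 9.25-fold. The Benjamini-Hochberg adjusted p was 0.097. That SE draws on spread shared over genes and libraries, so it is not the error of the 3 differences alone. The difference therefore missed the threshold of 0.05 in that fit, although DESeq2 with the same block gave an adjusted p of 1.23e-06. Without the pair of libraries 9 and 10, where the difference was smallest, edgeR gave an adjusted p of 7.65e-04. Without the block the adjusted p was 0.0556.

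Counts per gene do not separate transcripts of the worm from reads of double-stranded RNA that was eaten with the bacteria, and the part of such reads in the daf-7 values was not tested. The neighbours of daf-7 on the chromosome, looked up after the values of daf-7 were seen, did not stand higher with it. For trpp-11, which ends upstream of daf-7, the log2 change was 0.05 ± 0.10 (SE). For dac-1, which starts downstream, it was 0.14 ± 0.19 (SE). The RNAi channel gene sid-1 ranged from 160 to 248 CPM over the 6 libraries, with a log2 change of -0.05 ± 0.10 (SE) between feedings. The libraries are called by their labels from here on, since the labelled gene goes against them and no drop of daf-7 was seen.

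**Figure D1:**
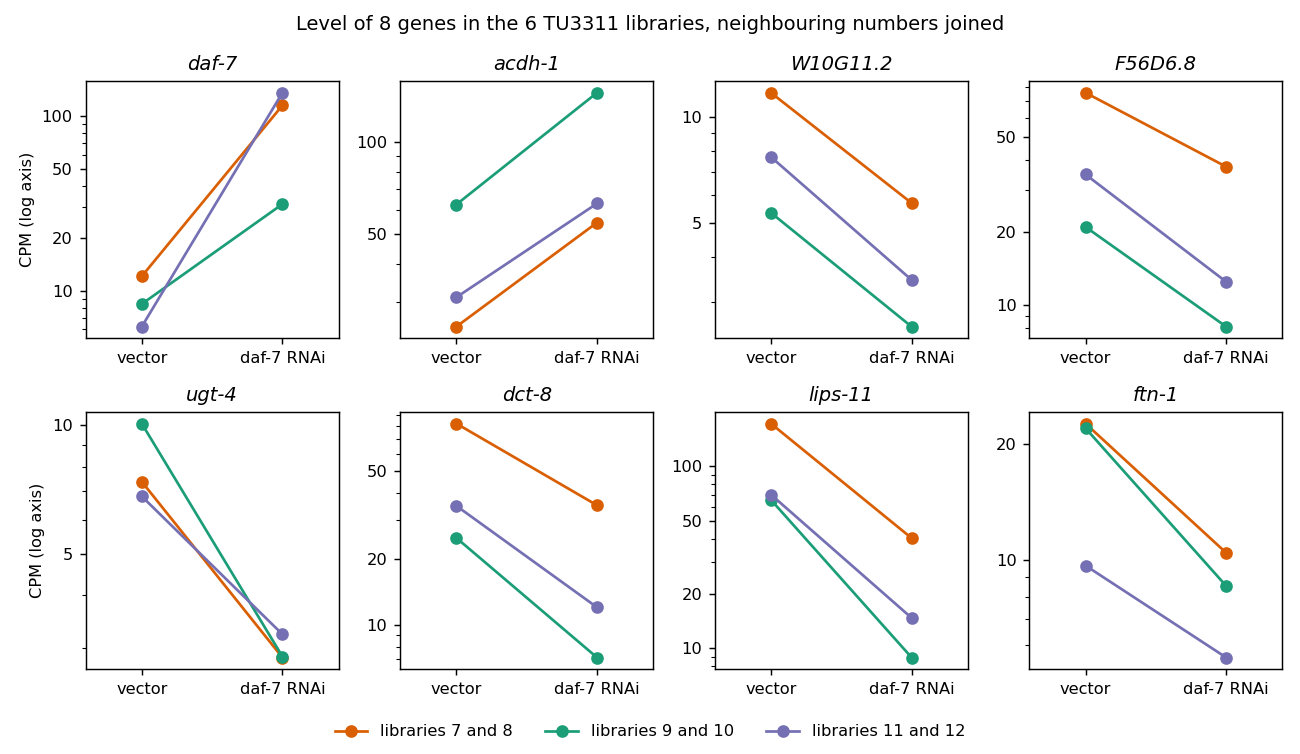
Level of 8 genes in each of the 6 TU3311 libraries, in CPM on a log axis, with vector on the left and daf-7 RNAi on the right of each panel. Each point is 1 library and each line joins 2 neighbouring numbers. The lines of daf-7 and acdh-1 go up in all 3 pairs and those of the other 6 genes go down. Of these 8 genes, only for daf-7, lips-11 and ugt-4 do all RNAi libraries lie on 1 side of all vector libraries. Genes not drawn here, among them C07A9.9, gfi-1, spp-4 and F28H7.3, separate in the same way. The share over all genes was not counted.

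None of the other 6 members of the dauer TGF-beta pathway passed the test, and all lay within 0.20 log2 units of 0. The type I receptor gene daf-1 had a log2 change of 0.11 ± 0.10 (SE), and the type II receptor gene daf-4 one of 0.17 ± 0.12. The receptor-regulated SMAD genes gave 0.08 ± 0.20 for daf-8 and -0.12 ± 0.12 for daf-14. The opposing SMAD gene daf-3 gave -0.10 ± 0.12, and daf-5, which encodes a Sno/Ski-type partner of DAF-3, gave -0.19 ± 0.10. Every one of these 6 had an edgeR adjusted p of 1.

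Of the 7 pathway genes, daf-5 and daf-14 were lower in all 3 pairs, 28.6% beside 9.85% of all genes tested. That share is only 2 genes, and each had a pair near 0. The values of daf-5 ran from -0.34 to -0.01 and those of daf-14 from -0.23 to -0.003. The differences of daf-4 were 0.04, -0.03 and 0.51, and those of daf-8 were -0.31, -0.10 and 0.66. Both were highest in libraries 11 and 12 relative to their vector neighbour. By level daf-4 stood between 38.9 and 73.4 CPM and daf-8 between 10.8 and 24.4 CPM, so both were counted in every library.

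No gene that acts before the ligand or after the pathway passed. All 14 listed genes that act in sensory neurons upstream of daf-7 were tested. The smallest unadjusted p, 0.047, belonged to tax-2, a subunit of the sensory cyclic nucleotide-gated channel, at 0.128 to 0.652 CPM. The kinase gene egl-4 had a log2 change of 0.08 ± 0.10 (SE), and the serotonin synthesis gene tph-1 one of -0.41 ± 0.25 at 0.398 to 1.15 CPM. Of the DAF-12 steroid hormone pathway, through which the dauer decision is carried out, 8 of 9 genes were tested. The nuclear receptor gene daf-12 itself had a log2 change of -0.07 ± 0.11 (SE). The 13 genes of the DBL-1 pathway, the worm's other SMAD pathway, which sets body size, had a median log2 change of -0.04, beside 0.02 for all 16618 genes tested.

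Few genes differed between the feedings beyond the spread of the pairs. Of 16618 genes tested with edgeR and the pair block, 0 passed in the higher direction, a background of 0% of genes, and 1 passed in the lower direction, a background of 0.00602%. A gene is said to pass only where it does so in this fit, unless another is named. Without the low-count filter edgeR called 9 genes higher and 19 lower, among them vit-1, srg-31 and clec-31. At an unadjusted p under 0.05 there were 262 higher genes, 1.58% of those tested, and 236 lower genes, 1.42%. Of these 498 genes 482 had the same sign in all 3 pairs. The same block in DESeq2 called 12 of 15973 genes higher, or 0.0751%, and 19 lower, or 0.119%, and all 31 had the same sign in all 3 pairs. Both fits used these same pairs, so agreement of sign among genes picked by them follows largely from the choice. It is not separate support. Without the block edgeR called none in either direction, with 77 genes at an unadjusted p under 0.05. With the block and only the 6 TU3311 libraries it also called none, with 592 genes at an unadjusted p under 0.05 and a smallest adjusted p of 0.0652.

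The pairs were not alike in size. Over 11497 genes with a mean of at least 2 CPM, the SD across genes of the log2 difference was 0.20 in libraries 7 and 8, 0.25 in 9 and 10 and 0.40 in 11 and 12. In the first pair 10 genes were at least 1 log2 unit higher and 22 lower. The second pair had 34 higher and 44 lower, and the third 233 higher and 40 lower. Described across genes, which are not independent replicates, the differences of the first 2 pairs correlated at 0.52, while the third pair correlated with them at -0.24 and -0.15.

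A gene passed the pair criterion when it differed by at least 1 log2 unit the same way in all 3 pairs. Of the 11497 genes, 2 did so in the higher direction, 0.0174%, and 5 in the lower direction, 0.0435%. The higher genes were daf-7 and acdh-1, and the lower genes were lips-11, dct-8, ugt-4, F56D6.8 and W10G11.2. With no limit on size, 1905 of the genes tested were higher in all 3 pairs, 11.5%, and 1637 were lower in all 3, 9.85%. These last 2 shares are the background for the gene groups below.

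**Figure D2:**
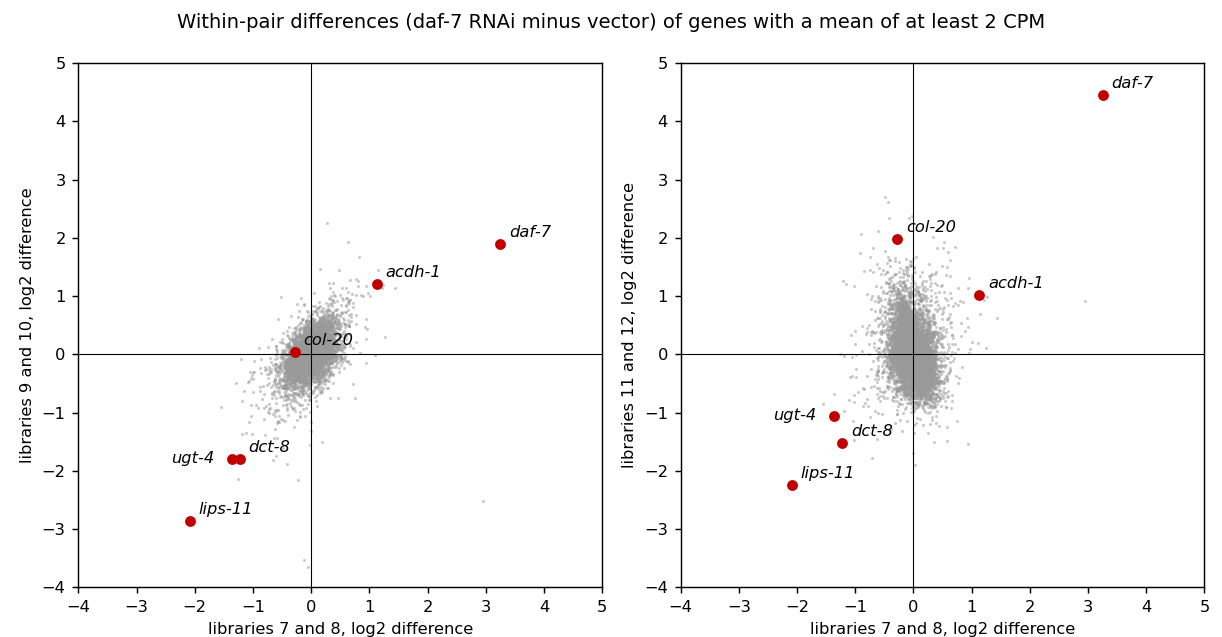
Within-pair log2 differences, daf-7 RNAi minus vector, for 11497 genes with a mean of at least 2 CPM. The x axis in both panels is the pair of libraries 7 and 8, and the y axis is libraries 9 and 10 on the left and 11 and 12 on the right. Grey points are genes and red points are 6 named ones. The left cloud runs along the diagonal (r = 0.52 across genes) and the right one stands upright (r = -0.24), while daf-7 and lips-11 lie far out in both.

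The 1 gene that passed, lips-11, fell. It encodes a predicted lipase of the lips family, enzymes that release fatty acids from lipids by similarity of sequence. The gene (WBcel235 chromosome II, 1108841 to 1111001, minus strand) overlaps no other annotated gene. It stood at 172 CPM with vector and 40.4 CPM with daf-7 RNAi in libraries 7 and 8, at 65.5 and 8.92 CPM in 9 and 10, and at 69.99 and 14.7 CPM in 11 and 12. Every RNAi library lay below every vector library, though the share of all genes that separate so was not counted.

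The log2 change of lips-11 was -2.40 ± 0.15 (SE of the fit, n = 3 pairs), which is 5.26-fold lower, with an edgeR adjusted p of 1.80e-04. Its within-pair differences of -2.09, -2.87 and -2.25, with an SD of 0.413, were closer to each other than the levels of the 3 vector libraries. The call held in 8 of 11 other settings. It was lost without the block, where the adjusted p was 1, and with only the 6 TU3311 libraries under the block, where it was 0.0652.

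Beside lips-11 lie 2 genes of the same family on the same strand, with no annotated gene in between apart from piRNA genes. Both were read at a far lower level and neither passed. The nearer one, lips-12, stood at 0.448 to 1.15 CPM and had a log2 change of -0.84 ± 0.32 (SE), with within-pair differences of -0.95, -0.88 and -0.44. The next, lips-13, stood at 0.451 to 2.08 CPM with a log2 change of -0.86 ± 0.34 (SE). These neighbours were singled out after their values were seen.

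Of 14 lips genes 11 were tested, and 5 of them, 45.5%, were lower in all 3 pairs, with 1 higher. The most abundant besides lips-11 was lips-15, at 44.5 to 100 CPM, with a log2 change of -0.42 ± 0.15 (SE) and an adjusted p of 1. The other abundant member, lips-10, stood at 12.2 to 37.3 CPM with a log2 change of -0.09 ± 0.20. The median of the 11 members was -0.25, -0.22 and -0.21 in the 3 pairs, while the median of their edgeR log2 changes was -0.09. How reads were shared between similar family members is not given in the sources used here.

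The next smallest p in the lower direction belonged to ugt-4 (chromosome V, 12793014 to 12795336, minus strand). It encodes a UDP-glucuronosyltransferase, an enzyme class that joins sugars to small lipophilic molecules so that they can be cleared. It stood at 7.38 and 2.85 CPM in libraries 7 and 8, 10.1 and 2.87 CPM in 9 and 10, and 6.82 and 3.23 CPM in 11 and 12. The 3 RNAi libraries lay within 2.85 to 3.23 CPM, and all were below the lowest vector library, a separation whose share over all genes was not counted. The log2 change was -1.43 ± 0.18 (SE), or 2.68-fold lower, with an edgeR adjusted p of 0.0702, so the gene did not pass in this fit. DESeq2 with the block called it lower at an adjusted p of 3.20e-07, and edgeR without the low-count filter at 7.56e-06.

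A run of 3 neighbouring genes on chromosome IV stood lower together. They are F56D6.9 (3892327 to 3893326), F56D6.8 (3894058 to 3894430) and dct-8 (3895070 to 3895506), with no annotated gene other than piRNA genes in between. The name of dct-8 comes from its control by DAF-16 in a germline tumour model. F56D6.8 was named by the smallest p and dct-8 by the pair criterion, while F56D6.9 was added after its values were seen. In libraries 7 and 8, dct-8 stood at 82.3 CPM with vector and 35.03 CPM with daf-7 RNAi. It stood at 24.9 and 7.14 CPM in 9 and 10, and at 34.8 and 12.1 CPM in 11 and 12.

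The RNAi library was lower in every pair, yet the groups overlap, because the RNAi library 8 lies above the vector libraries 9 and 11. The log2 change of dct-8 was -1.51 ± 0.24 (SE), with an edgeR adjusted p of 0.147. That of F56D6.8 was -1.29 ± 0.18 with an adjusted p of 0.0978, and that of F56D6.9 -1.13 ± 0.18 with 0.147. All 3 genes were highest in libraries 7 and 8, and none passed in this fit, while edgeR without the low-count filter called F56D6.8 and F56D6.9 lower. Each was called lower by DESeq2 with the block, at adjusted p of 1.60e-06 for dct-8, 3.20e-07 for F56D6.8 and 6.87e-05 for F56D6.9.

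Another 2 genes complete the smallest p of the lower direction. Ferritin heavy chain ftn-1, which stores iron in the intestine and is a target of DAF-16, stood at 22.6 and 10.4 CPM, 21.98 and 8.54 CPM, and 9.65 and 5.57 CPM in the 3 pairs. Its log2 change was -1.099 ± 0.16 (SE) with an edgeR adjusted p of 0.102, and the vector library 11 lies below the RNAi library 8, so the groups overlap. The short-chain dehydrogenase gene dhs-26 stood at 17.7 and 6.82 CPM, 21.5 and 6.39 CPM, and 5.54 and 3.42 CPM. Its log2 change was -1.302 ± 0.19 with an adjusted p of 0.102, and it passed at 0.029 without libraries 11 and 12. DESeq2 with the block called both genes lower, at adjusted p of 1.08e-05 for ftn-1 and 1.14e-06 for dhs-26. So did edgeR without the low-count filter.

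Both were lower in every pair, with the smallest differences in libraries 11 and 12, and vector library 11 lies below the RNAi libraries 8 and 10 for dhs-26. The gene dhs-26 overlaps ZK816.1 on the other strand, and W10G11.2, the last of the 5 pair-criterion genes, overlaps lgc-45 on the other strand. The library kit does not mark strand, so reads of such partners cannot be told apart. W10G11.2 had within-pair differences of -1.03, -1.06 and -1.14, among the most even of the named genes, and an edgeR adjusted p of 0.162. DESeq2 with the block called it lower at an adjusted p of 0.0038, as did edgeR without the low-count filter.

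In the higher direction the smallest p after daf-7 belonged to 2 short genes of the nematode-specific peptide family c, a lectin gene and cth-1. On the X chromosome, nspc-17 stood at 6.30 and 11.06 CPM, 2.25 and 5.49 CPM, and 0.977 and 1.89 CPM in the 3 pairs. Its log2 change was 1.01 ± 0.16 (SE) with an edgeR adjusted p of 0.147. For nspc-19, which lies past nspc-18 on the same stretch, the change was 1.06 ± 0.19 with an adjusted p of 0.196. DESeq2 with the block called both higher, at adjusted p of 0.0154 for nspc-17 and 0.0345 for nspc-19. So did edgeR without the low-count filter. Every pair was higher with daf-7 RNAi for both, while libraries 7 and 8 were highest for both, so the groups overlap.

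Other members of the family, looked at after the fact, differed less or the other way. On that stretch nspc-16 and nspc-18 had log2 changes of 0.71 ± 0.24 (SE) and 0.48 ± 0.14, and nspc-20 one of 0.15 ± 0.15. Elsewhere on X, nspc-4 was lower in all 3 pairs with a log2 change of -0.52 ± 0.13 at 17.4 to 55.4 CPM. None of these passed, and reads of such close paralogs can be split by counting.

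The C-type lectin gene clec-258, of a family of secreted or membrane sugar-binding proteins, stood at 5.89 and 13.1 CPM, 2.63 and 7.24 CPM, and 1.88 and 3.07 CPM. Its log2 change was 1.12 ± 0.19 (SE) with an edgeR adjusted p of 0.15. The gene cth-1, for a cystathionine gamma-lyase that makes cysteine, stood at 64.7 and 86.7 CPM, 49.3 and 76.4 CPM, and 23.8 and 40.9 CPM. Its log2 change was 0.61 ± 0.12 with an adjusted p of 0.264. DESeq2 with the block called both higher, at adjusted p of 0.00519 for clec-258 and 0.0179 for cth-1. So did edgeR without the low-count filter. Both were higher within every pair, and both have RNAi libraries below vector libraries of another pair.

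The gene acdh-1 shows how far the 2 ways of reading can part. It encodes an acyl-CoA dehydrogenase of branched-chain amino acid and propionate breakdown, and it is known to be highly responsive to the bacterial diet. It stood at 25.01 and 54.6 CPM in libraries 7 and 8, 62.5 and 145 CPM in 9 and 10, and 31.2 and 63.0 CPM in 11 and 12. The within-pair differences of 1.12, 1.21 and 1.01 had an SD of 0.10, and the vector library 9 lies above the RNAi library 8.

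The edgeR log2 change of acdh-1 was 1.12 ± 0.46 (SE), with an unadjusted p of 0.0403 and an adjusted p of 1. In that fit the daf-16(mu86) libraries share the spread, and in them acdh-1 ran from 4.71 to 40.3 CPM. Over the other settings its lowest adjusted p was 0.077, so it was called in none. The related gene acdh-2, looked at after the fact, had a log2 change of 0.14 ± 0.23 (SE) at 0.832 to 1.94 CPM.

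**Figure D3:**
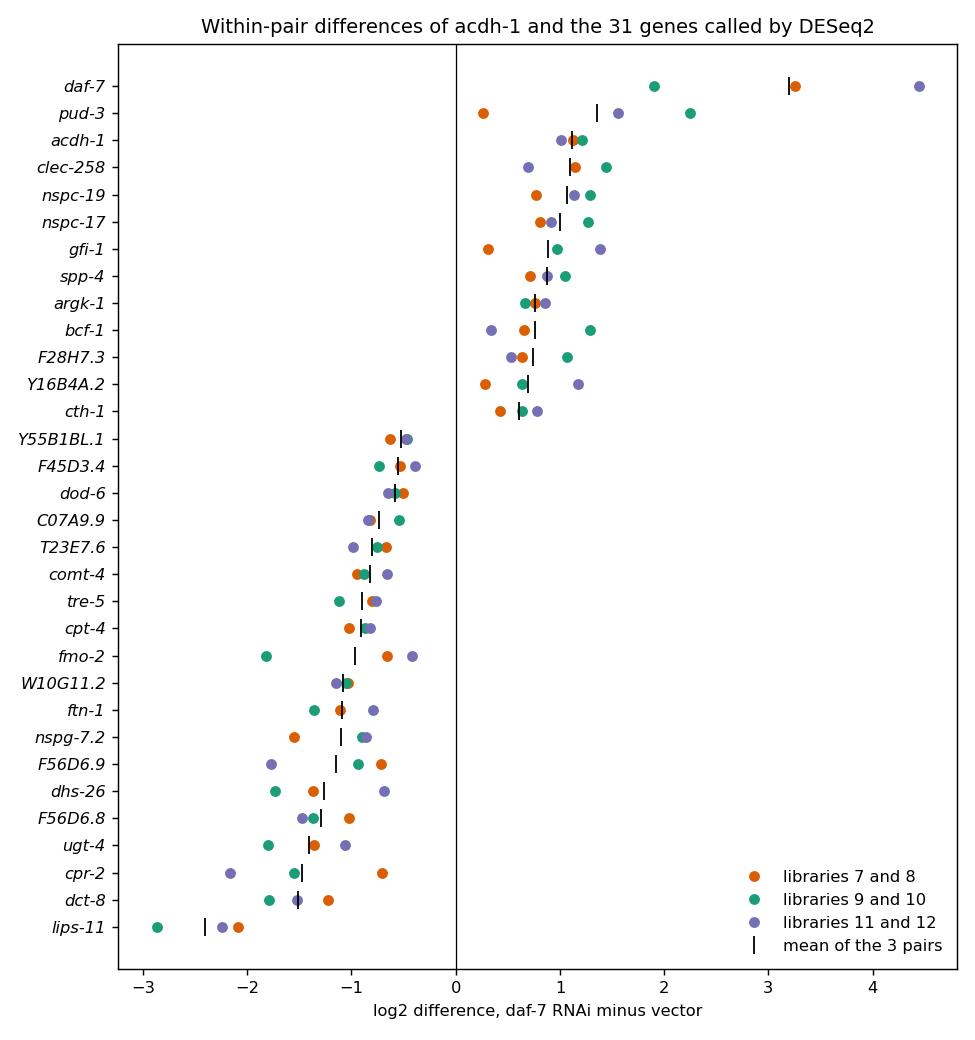
Within-pair log2 differences, daf-7 RNAi minus vector, of the 31 genes that DESeq2 called with the pair block and of acdh-1, which it did not call. Each coloured point is 1 pair of libraries and the black mark is the mean of the 3 pairs. All points of 13 genes lie above 0 and all points of 19 genes below 0, with lips-11 lowest at a mean of -2.40 and daf-7 highest at 3.20.

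The other genes that DESeq2 called with the pair block, named after that result was seen, did not pass in the 12-library edgeR fit with the block. On the higher side argk-1, an arginine kinase that buffers ATP, had a log2 change of 0.76 ± 0.17 (SE). It is the next gene after cth-1 on chromosome V, on the same strand. Likewise gfi-1 and bcf-1 are next to each other on chromosome V on 1 strand, with changes of 0.89 ± 0.18 and 0.76 ± 0.16. The saposin-like gene spp-4, of a group of membrane-acting antimicrobial peptides, had a change of 0.88 ± 0.17. The last 3 were F28H7.3, Y16B4A.2 and pud-3, of which pud-3 was uneven, at 0.26, 2.25 and 1.56 in the 3 pairs.

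On the lower side stood several metabolic genes. The trehalase gene tre-5 had a log2 change of -0.90 ± 0.15 (SE), the carnitine palmitoyltransferase gene cpt-4 one of -0.91 ± 0.18, and the catechol-O-methyltransferase gene comt-4 one of -0.84 ± 0.14. The flavin monooxygenase gene fmo-2 had within-pair differences of -0.66, -1.82 and -0.42. The cysteine protease gene cpr-2 had -0.71, -1.55 and -2.17, at 0.570 to 3.35 CPM. The others were T23E7.6, nspg-7.2, C07A9.9, dod-6, F45D3.4 and Y55B1BL.1. In the 12-library edgeR fit with the block their adjusted p ran from 0.147 for comt-4 and T23E7.6 to 0.869 for fmo-2. Without the low-count filter edgeR called 8 of the 11, all but cpt-4, fmo-2 and Y55B1BL.1, and on the higher side spp-4, F28H7.3 and Y16B4A.2.

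The yolk proteins split into 2 sets. Yolk is made in the intestine and taken up by oocytes through the receptor RME-2. Of 7 genes tested, vit-1, vit-3 and vit-4 were higher in all 3 pairs, 42.9% of the list beside the background of 11.5%, and none passed. For vit-3 the levels were 820 and 1203 CPM, 375 and 719 CPM, and 448 and 587 CPM in the 3 pairs, a log2 change of 0.63 ± 0.15 (SE) with an edgeR adjusted p of 0.559.

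For vit-1 the log2 change was 0.51 ± 0.12 (SE) and for vit-4 0.43 ± 0.13. The far more abundant vit-2, vit-5 and vit-6 gave -0.05 ± 0.11, 0.04 ± 0.15 and -0.15 ± 0.14. Those 3 stood lower in library 10 than in library 9 and higher in library 12 than in library 11. The receptor gene rme-2 gave 0.09 ± 0.10. The genes vit-3 and vit-4 are close paralogs, so their counts may not be independent.

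DAF-16 is the FOXO factor that insulin signalling keeps out of the nucleus, and insulin-like ligands are among the known outputs of daf-7 signalling. Of 26 tested DAF-16-activated genes 7 were lower in all 3 pairs, 26.9% beside the background of 9.85%, and 2 were higher. Besides ftn-1, the members with an unadjusted p under 0.05 were dod-6, dod-3 and the long noncoding RNA tts-1, all lower. The log2 change was -0.58 ± 0.11 (SE) for dod-6, -0.53 ± 0.15 for dod-3 and -0.55 ± 0.14 for tts-1. None passed, and the median of the list was -0.12.

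Among 32 tested insulin-like peptide genes the median log2 change was -0.13, made of 0.01, -0.05 and -0.36 in the 3 pairs. The smallest p was that of ins-22, at 3.91 and 2.55 CPM, 4.53 and 3.05 CPM, and 6.23 and 3.07 CPM, with an edgeR adjusted p of 1. The 12 tested genes of insulin receptor signalling had a median of 0.09, and daf-16 itself a log2 change of -0.14 ± 0.10 (SE).

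Genes for clearing foreign and lipophilic compounds stood on both sides of 0. Of 62 tested UDP-glucuronosyltransferase genes 4 were higher and 8 lower at an unadjusted p under 0.05, beside 1.58% and 1.42% of all genes. In all 3 pairs 12 were higher, 19.4%, and 14 lower, 22.6%. After ugt-4 the lowest p were those of ugt-66, with a log2 change of -0.65 ± 0.17 (SE), and ugt-11, with -0.57 ± 0.15. On the higher side ugt-53 had 0.71 ± 0.20. The list median was 0.02, beside 0.02 for all genes.

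Of 67 cytochrome P450 genes 17 were higher in all 3 pairs, 25.4%, and 8 lower, 11.9%. At an unadjusted p under 0.05 there were 2 higher and 4 lower. The smallest p belonged to cyp-35A5, at 2.52 and 3.83 CPM, 1.90 and 4.25 CPM, and 1.16 and 2.14 CPM, with an edgeR adjusted p of 0.413. In the other direction cyp-34A9 had a log2 change of -0.52 ± 0.15 (SE) at 20.4 to 85.2 CPM. None of the 44 tested glutathione S-transferase genes passed either.

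More C-type lectin genes, several of which take part in immune defence, were higher than lower. Of 138 tested C-type lectin genes 31 were higher in all 3 pairs, 22.5% beside 11.5%, and 12 were lower, 8.7% beside 9.85%. At an unadjusted p under 0.05 there were 13 higher and 4 lower, beside 1.58% and 1.42% of all genes. Besides clec-258, examples are clec-5, at 15.8 to 84.3 CPM with a log2 change of 0.52 ± 0.14 (SE), and clec-42 with 0.60 ± 0.17. The clearest lower one was clec-31, at 0.228 to 1.1 CPM with -1.63 ± 0.32. The median of the list was 0.09, 0.08 and 0.05 in the 3 pairs.

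Among 17 infection response genes irg-8 had a log2 change of 0.51 ± 0.15 (SE) and irg-6 one of 0.80 ± 0.22, while cpt-4 was lower. Of 143 tested chemoreceptor-type genes srg-31 had the smallest p, with within-pair differences of 1.22, 1.15 and 0.93 at 1.35 to 9.78 CPM and an edgeR adjusted p of 0.35. None of these genes passed.

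Neuropeptide and nuclear receptor genes had more members lower than higher, mainly in 1 pair. Of 30 tested FMRFamide-like peptide genes 8 were lower in all 3 pairs, 26.7%, and the medians in the pairs were 0.03, -0.02 and -0.50. Of 62 neuropeptide-like protein genes 16 were lower in all 3, 25.8%, with medians of 0.00, -0.11 and -0.37. Of 208 nuclear hormone receptor genes 43 were lower in all 3, 20.7%, with medians of -0.03, 0.00 and -0.21. In each of these 3 lists the third pair had the lowest median, and no member passed. Of the 24 neuron markers, all tested, 5 were lower in all 3 pairs, 20.8%, and 1 was higher, with medians of -0.08, -0.15 and 0.09 in the pairs. Their summed level was 614 to 894 CPM with vector and 613 to 855 CPM with daf-7 RNAi, and the part of neuronal RNA in the peptide values was not tested.

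**Figure D4:**
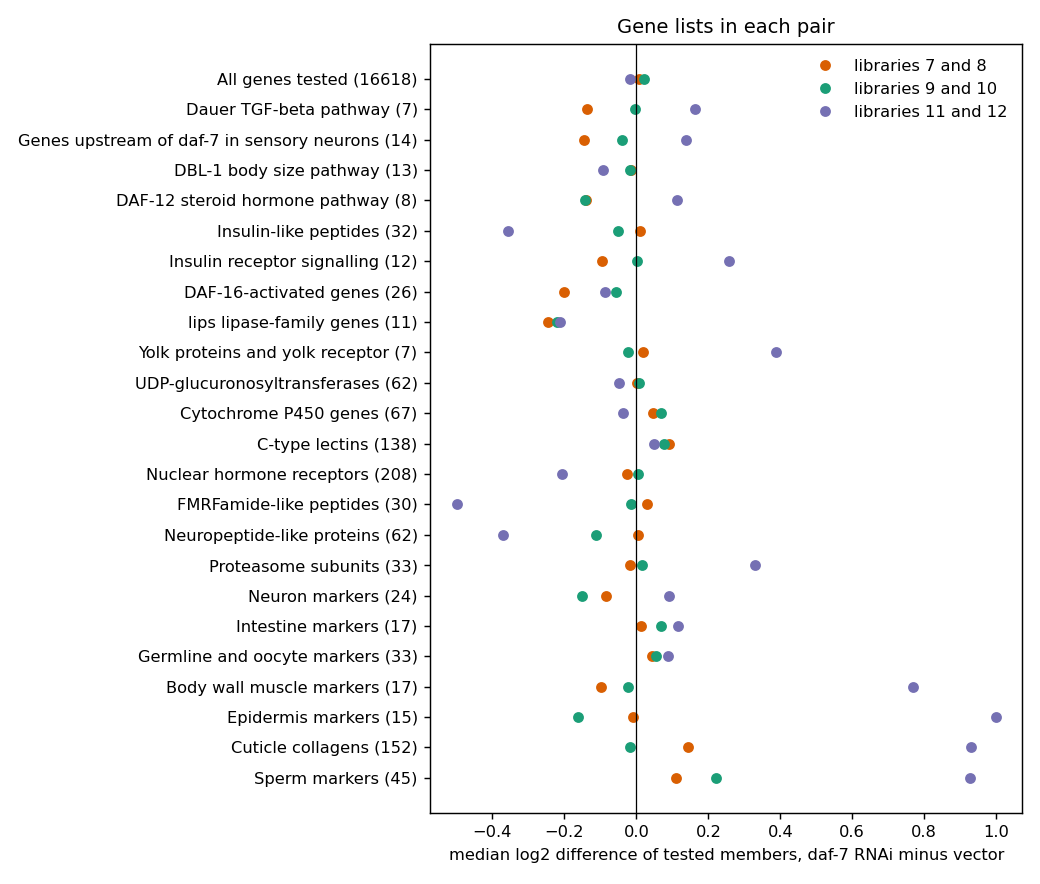
Median within-pair log2 difference of the tested members of 23 gene lists and of all genes tested, with 1 point for each pair of libraries and the number of tested members in brackets. The medians of the lips genes, the DAF-16-activated genes and the DBL-1 pathway lie below 0 in all 3 pairs. The points of libraries 11 and 12 stand alone on the right for body wall muscle markers (0.77), epidermis markers (1.00), cuticle collagens (0.93) and sperm markers (0.93).

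The largest list differences lay in libraries 11 and 12. Cuticle collagens, which build the outer coat of the worm, had medians of 0.14, -0.02 and 0.93 in the 3 pairs over 152 tested genes. Of these 51 were higher in all 3 pairs, 33.6% beside 11.5% of all genes, and 2 were lower, 1.32% beside 9.85%. At an unadjusted p under 0.05 in edgeR there were 22 higher and 0 lower, beside 1.58% and 1.42% of all genes, and none passed. The list median of 0.37 came to 0.07 without libraries 11 and 12. By summed level over the 176 listed genes, the collagens stood at 4142 and 5367 CPM, 2592 and 3357 CPM, and 2576 and 4874 CPM. For col-179, the member with the smallest p, the within-pair differences were 0.59, 0.73 and 1.76 and the edgeR adjusted p was 0.806.

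Epidermis, body wall muscle and sperm markers stood higher with the collagens in this pair, while the medians of pharynx, neuron and intestine markers were 0.04, 0.09 and 0.12. Many of the epidermis markers are themselves cuticle collagen genes, among them col-19, dpy-7 and rol-6, so these lists are not independent. The 15 epidermis markers summed to 265 and 287 CPM, 374 and 403 CPM, and 395 and 576 CPM, and the 17 body wall muscle markers to 4343 and 4134 CPM, 3170 and 3135 CPM, and 2625 and 4049 CPM. Without libraries 11 and 12 their median log2 changes went from 0.27 to -0.11 and from 0.25 to -0.07. The sperm markers, mostly major sperm protein genes, had medians of 0.11, 0.22 and 0.93, and 24 of 45 tested members, 53.3%, were higher in all 3 pairs.

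Sperm transcripts were low in every library, with a sum over 60 listed genes of 58.9 to 161 CPM with vector and 64.3 to 170 CPM with daf-7 RNAi, and msp-58 was at 0 in all 6. The major sperm protein genes are close paralogs, so their counts are not independent. Germline and oocyte markers differed little in any pair, with medians of 0.04, 0.06 and 0.09. The part of tissue make-up in the gene changes above was not tested.

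The single genes named here were picked for how far the difference in a single pair lay from those in the others. Their split between pairs follows from that choice and is not separate support for that of the lists. The collagen genes col-81, col-20 and col-129 had within-pair differences of 1.74, 1.99 and 1.77 in libraries 11 and 12, and of -0.92 to 0.04 in the other 2 pairs. The genes apc-17 and C25H3.11 likewise stood lower in the first 2 pairs and at least 1.43 higher in the third. In the other direction F52G3.6 gave 0.35, 0.17 and -1.503. The ribosomal RNA gene rrn-3.1 took 0.259% to 3.22% of the counts, lowest in library 10 and highest in library 12, with differences of -0.06, -3.66 and 1.53.

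Libraries 7 and 8 stood apart from the other 4 whatever the feeding. Germline and oocyte markers lay -0.83 and -0.82 log2 units from the mean of the 6 libraries in 7 and 8, and at 0.33 to 0.45 in the others. Sperm markers lay at 0.99 and 1.04 in 7 and 8, and from -1.25 to 0.58 in the others. The acyl-CoA synthetase gene acs-2 stood at 21.03 and 19.9 CPM in 7 and 8 and at 228 to 495 CPM in the other 4. The alcohol dehydrogenase gene adh-1 stood at 41.7 and 35.9 CPM against 155 to 241 CPM.

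In acs-2 and adh-1 the gap between libraries was wider than any difference between feedings. These genes and those below were picked for the largest gap in level between libraries 7 and 8 and the rest. A wide gap in them therefore follows from the choice, and the share of all genes with such a gap was not counted. In the other direction, cpt-3 stood at 42.8 and 37.8 CPM in 7 and 8 and at 6.55 to 10.6 CPM in the rest, and the collagen gene col-183 at 75.4 and 84.1 CPM against 8.00 to 18.5 CPM. The Onchocerca-related antigen gene ora-1 stood at 35.7 and 84.4 CPM in 7 and 8, 6.58 and 15.1 CPM in 9 and 10, and 7.05 and 7.61 CPM in 11 and 12. The gene next to it, F57H12.6, stood at 31.3 and 84.9 CPM in 7 and 8 and had within-pair differences of 1.44, 1.13 and 0.62. Those 2 were far apart between pairs and also higher with daf-7 RNAi in each pair, with edgeR adjusted p of 1.

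**Figure D5:**
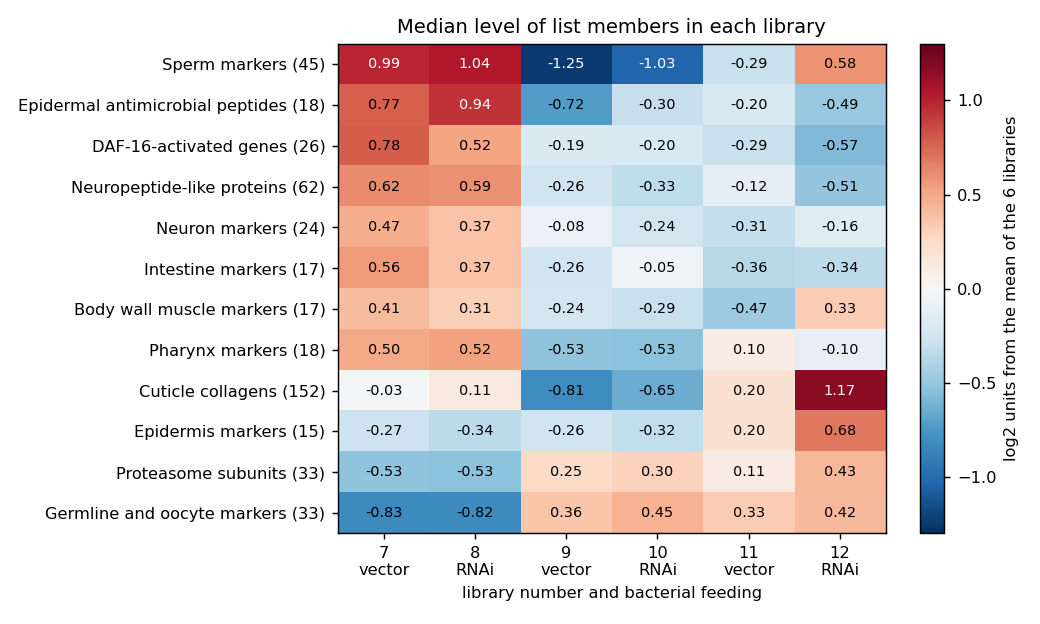
Median level of the tested members of 12 gene lists in each TU3311 library, as log2 units from the mean of the 6 libraries, with the value printed in each cell and red for higher. Libraries 7 and 8 share their colours in nearly every row, with germline and oocyte markers at -0.83 and -0.82 and sperm markers at 0.99 and 1.04. Library 12 stands out for cuticle collagens at 1.17.

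Taking differences within pairs removes that gap by construction. The median over genes of the SD of log2 CPM among the 3 vector libraries was 0.48, and among the 3 daf-7 RNAi libraries also 0.48. The median SD of the 3 within-pair differences was 0.25. Deviations from the group means correlated at 0.89 for libraries 7 and 8, 0.78 for 9 and 10 and 0.50 for 11 and 12, and between -0.78 and 0.27 for libraries with other numbers.

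The responses of the 2 strains to their labelled RNAi differed for many genes. The change with daf-7 RNAi in TU3311 minus that with bcat-1 RNAi in daf-16(mu86) was higher for 1859 genes, 11.2% of those tested, and lower for 2490, 15%, at an edgeR adjusted p under 0.05. Strain and RNAi target both differ between these responses, so their parts cannot be told apart. In daf-16(mu86), lips-11 stood at 45.9, 58.4 and 62.8 CPM with vector and at 17.6, 21.95 and 23.7 CPM with bcat-1 RNAi. It was thus lower with the labelled RNAi in all 6 pairs of the series, with within-pair differences of -1.38 to -1.41 in daf-16(mu86) and of -2.09 to -2.87 in TU3311.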

How the data were processed

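Whole-worm RNA was sequenced in 12 libraries. The kit, per the labels' protocols, was Illumina's TruSeq RNA v2, a kit that does not mark strand. The authors deposited counts as whole numbers per gene. Per the submitters' processing notes the tools were STAR 2.4.1d and featureCounts 1.4.6-p4, after bcl2fastq 1.8.4, on WBcel235. The annotation release, the strand setting and the treatment of multiply mapped reads are not given in the sources used here. The deposited RPKM table was not used here.

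Counts were tested in R 4.3.3 with edgeR 4.0.16 and limma 3.58.1, by a two-sided quasi-likelihood test. Scaling was by TMM, dispersions were robust, and low genes were removed by edgeR's default filter by group. All 12 libraries entered 1 fit with group and neighbouring pair as terms, which left 4 residual degrees of freedom. A gene passed in this fit at a Benjamini-Hochberg adjusted p under 0.05. Adjusted p are from edgeR unless DESeq2 is named. The SE is the absolute log2 change over the square root of F, so it rests on the spread in that fit and not on a gene's own pair differences alone. Log2 CPM used a prior count of 2, and n is 3 libraries per group. The step was tested on simulated data.

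The labels state no pairing. Deviations from group means correlated at 0.892, 0.777 and 0.504 within the neighbouring pairs, each over 0.1, and the pairing comes from these values. The comparison, its pairs, the 41 gene lists and the rule for named genes were chosen with earlier results of these data known. The genes named are the 7 pathway genes, called genes or else the 5 smallest p per direction, genes past 1 log2 unit in all 3 pairs, the member of each list with the smallest p, and up to 6 genes per direction for each contrast of libraries 7 and 8 with the rest, of which some are not reported here. Others are said to have been chosen after their values were seen, as were the members of a list named beyond the first, the collagen gene col-129, and the sums of markers.

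Gene names and coordinates come from an Ensembl annotation of WBcel235, release 115, which held 46449 of 46748 identifiers. Of the list entries 7 had no match. The alternatives were other scaling, no low-count filter, DESeq2 1.42.0, fits without the block or the other strain, other prior counts and level limits, and each pair left out.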

Additional observations from a re-analysis of the deposited data

Results flagged for a closer look

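The pathway genes and the genes named by their call, the smallest p or the pair criterion were also compared between the 2 responses. For 10 of them the response to daf-7 RNAi in TU3311 differed from the response to bcat-1 RNAi in daf-16(mu86). This was a test of the difference itself in the same edgeR fit. Apart from the pathway genes, the genes had been picked by their change in TU3311, which is part of that difference. For those genes the choice favoured a pass, so the test is not independent support. Strain and RNAi target both change between these responses and cannot be told apart. Over all genes tested, 11.2% were higher and 15% lower by the same test. Of the genes compared here, daf-3, daf-5, daf-8, daf-14, cth-1, acdh-1, F56D6.8, dct-8 and W10G11.2 did not pass it. Other genes named above also passed this test, among them cpr-2 with a difference of -5.53, tre-5 with -1.96, fmo-2 with -3.33 and gfi-1 with 2.00. The difference, TU3311 minus daf-16(mu86), is on the log2 scale.

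For daf-7 it was 2.37 ± 0.59 (SE, adjusted p = 0.0218). With bcat-1 RNAi in daf-16(mu86) its within-pair differences were 1.12, 0.54 and 0.87, at no more than 3.74 CPM in any of those 6 libraries. The receptor genes daf-1 and daf-4 had differences of 0.48 (adjusted p = 0.0286) and 0.64 (0.0232). In TU3311 neither passed, and in daf-16(mu86) both were lower in all 3 pairs, daf-4 by values of -0.38 to -0.56.

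Among genes higher in TU3311 the difference was 1.68 for nspc-17, 1.46 for clec-258 and 1.38 for nspc-19, with adjusted p from 0.00334 to 0.0105. In daf-16(mu86) nspc-17 had within-pair differences of -0.62 to -0.69.

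Among genes lower in TU3311 the difference was -0.99 for lips-11, -1.79 for ugt-4, -1.17 for dhs-26 and -1.32 for ftn-1, with adjusted p from 0.00334 for ugt-4 to 0.0135 for dhs-26. For lips-11 both responses go the same way, while ugt-4 had within-pair differences of 0.21 to 0.64 in daf-16(mu86).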

How the results depend on the processing

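The lower call of 1 gene became 0 without the pair block, 0 with the block in the 6 TU3311 libraries alone and 0 in those libraries without the block. The paired fit in those 6 libraries left 2 residual degrees of freedom, and its smallest adjusted p was 0.0652. Without a low-count filter 9 genes were called higher and 19 lower, and DESeq2 with the pair block called 12 higher and 19 lower. Leaving out 1 pair gave 0 to 1 higher genes (daf-7 without libraries 9 and 10) and 1 to 2 lower genes (lips-11, and dhs-26 without libraries 11 and 12). The log2 change of daf-7 was 3.21 with DESeq2, where it passed, and 2.60 to 3.85 with 1 pair left out. It stayed above 3.18 under the other settings, with edgeR adjusted p from 0.0547 to 1. Genes past 1 log2 unit in all pairs were 1 higher with library totals, where acdh-1 dropped out, and 3 lower at a mean of at least 10 CPM. With 1 pair left out they were 2 to 7 higher and 6 to 10 lower. For the changes of 12 named genes, 109 of 132 values under other settings kept their side of the threshold, 20 newly passed, 3 no longer passed (lips-11) and none reversed. The median log2 change of all genes lay between -0.01 and 0.02 in every setting. The cause of these shifts was not tested.

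The comparison rests on 3 pairs, the pairing was read from the values, and no label speaks of separate cultures. Genes under about 2 CPM have few counts behind them.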
